A study of Mus musculus with 17 samples.

Results

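The receptor tyrosine kinases Alk and Ltk, the growth factors Ptn and Mdk and the phosphatase Ptprz1 were followed in sympathetic ganglia of KI Alk mice. They were taken by gene symbol, 5 genes of the 17306 probe sets of the array table, with 1 probe set each, and all 5 passed the filter on low values, a log2 value over 4 in at least 2 arrays, as did 9973 probe sets in all. The 17 arrays were Affymetrix Mouse Genome expression arrays of RNA from superior cervical and stellate ganglia, pooled, of C57BL/6 mice. The groups were P18 Het (n = 2), P18 Wt (n = 3), P0 Hom (n = 4), P0 Het (n = 4) and P0 Wt (n = 4), where P0 and P18 are days after birth. Het and Hom mice carried 1 and 2 copies of a knocked-in F1178L allele of Alk, an activating kinase mutation, whose mutated exon the study left flanked by lox sites, and Wt mice carried none. There was no Hom group at P18. Whether the samples were separate mice or litters is not in the labels, so that p-values measure only the spread between these samples, and neither is a batch or a scan date, so that stage and a batch cannot be told apart.

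Alk and Ltk are the receptor tyrosine kinases most closely related to each other, and both belong to the wider family of the insulin receptor. Alk is found in embryonic sympathetic neuroblasts, and its activating mutations are known from neuroblastoma, the childhood tumour of this lineage. The peptides Alkal1 and Alkal2 bind and activate both receptors; they have no row in the table and were not analysed here. Ptn (pleiotrophin) and Mdk (midkine) are 2 related heparin-binding growth factors of the developing nervous system, and both have been described as activators of Alk signalling. Ptprz1 is a receptor tyrosine phosphatase that both growth factors bind and whose activity pleiotrophin lowers, and Alk is among its described substrates. Values below are log2 expression values after GCRMA, and 1 log2 unit is a 2-fold difference. They rank arrays for 1 gene and were not used to rank genes against each other. An array probe set reads the mutant and the Wt transcript of Alk alike, so that Alk values give the sum of both alleles and do not check the genotype labels.

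In RefSeq on GRCm38.p6, Alk spans chr17:71868988-72604702 and Ltk chr2:119751326-119760431. Mdk also lies on chromosome 2, at chr2:91929805-91932297, while Ptn (chr6:36714924-36810179) and Ptprz1 (chr6:22875315-23052916) share chromosome 6. The 2 receptors moved in opposite directions between the stages, as given below, and the 250 bases before the RefSeq start of each are shown for that reason, in the direction of transcription, at chr17:72604308-72604557 (minus strand) for Alk and chr2:119758526-119758775 (minus strand) for Ltk. Both windows fall inside the annotated spans of their genes, so that neither lies upstream of the annotated end. Capitals mark GGGCGG, the letters of a GC box, on either strand.
Alk: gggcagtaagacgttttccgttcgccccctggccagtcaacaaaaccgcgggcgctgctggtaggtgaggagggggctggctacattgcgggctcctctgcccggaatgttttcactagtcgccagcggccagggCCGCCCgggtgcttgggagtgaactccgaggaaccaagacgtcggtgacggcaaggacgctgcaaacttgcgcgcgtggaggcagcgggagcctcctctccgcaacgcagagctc
Ltk: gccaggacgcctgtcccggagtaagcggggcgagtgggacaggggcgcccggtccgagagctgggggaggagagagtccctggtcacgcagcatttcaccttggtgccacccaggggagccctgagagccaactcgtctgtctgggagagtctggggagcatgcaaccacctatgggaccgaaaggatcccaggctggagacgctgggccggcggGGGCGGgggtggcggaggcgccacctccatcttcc
Each window held GGGCGG 1 time, as 32.7% of the 32851 mouse promoter windows of this length did at least 1 time, on either strand. The letters TGACG, on either strand and not overlapping GGGCGG, were in the Alk window 1 time and not in the Ltk window, and in 17.8% of all windows. The Alk window had 23 CpG dinucleotides and the Ltk window 16, counts reached by 13.3% and 25.4% of all windows. CANNTG, the letters of an E-box, were in neither window and in 66.2% of all windows. These are matches of letters and were not tested as binding sites.

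Alk was highest in newborn Hom ganglia and lowest in Wt ganglia at P18. Its log2 values were 7.74 and 7.60 in P18 Het ganglia and 6.50, 6.98 and 5.85 in P18 Wt ganglia. At P0 they were 9.63, 9.17, 9.52 and 9.46 in Hom, 9.23, 9.06, 9.12 and 9.12 in Het, and 8.31, 8.39, 8.60 and 8.50 in Wt ganglia. The groups stood in the order P0 Hom, P0 Het, P0 Wt, P18 Het, P18 Wt, and the arrays of neighbouring groups overlapped only between P0 Hom and P0 Het. Ltk, the relative of Alk, had the reverse order of stages. Its values were 8.36 and 8.77 in P18 Het ganglia and 8.31, 8.90 and 8.13 in P18 Wt ganglia. In the newborn they were 3.73, 2.92, 5.10 and 5.38 in Hom, 4.56, 3.70, 4.23 and 4.53 in Het, and 3.49, 5.08, 4.63 and 4.12 in Wt ganglia. Ltk therefore lay over the filter line of 4 in all P18 arrays and in 8 of the 12 P0 arrays.

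Among the ligands, Ptn had values of 9.59 and 9.58 in P18 Het ganglia and 9.74, 9.84 and 9.95 in P18 Wt ganglia. At P0 it had 8.98, 8.78, 8.86 and 8.73 in Hom, 8.78, 8.96, 8.67 and 8.85 in Het, and 9.13, 8.56, 8.44 and 9.27 in Wt ganglia. Every P18 array was above every P0 array, and the P0 Wt arrays were spread around the other newborn groups on both sides. Mdk had values of 5.03 and 4.74 in P18 Het ganglia and 5.10, 5.21 and 5.22 in P18 Wt ganglia. At P0 it had 7.24, 7.16, 6.50 and 5.41 in Hom, 6.95, 6.31, 7.02 and 6.61 in Het, and 5.98, 5.89, 6.41 and 6.64 in Wt ganglia. For Mdk every P18 array was below every P0 array, and the widest group was P0 Hom with an SD of 0.85. The phosphatase Ptprz1 had the narrowest range of group means of the 5 genes. Its values were 9.53 and 9.62 in P18 Het ganglia, 9.37, 9.67 and 9.53 in P18 Wt ganglia, 9.48, 9.10, 9.48 and 9.29 in P0 Hom ganglia, 9.12, 9.20, 9.01 and 8.86 in P0 Het ganglia, and 8.94, 8.89, 8.77 and 9.14 in P0 Wt ganglia. The P0 Hom arrays of Ptprz1 lay between, overlapping those of P18 Wt as well as those of P0 Het and P0 Wt.

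**Figure D1:**
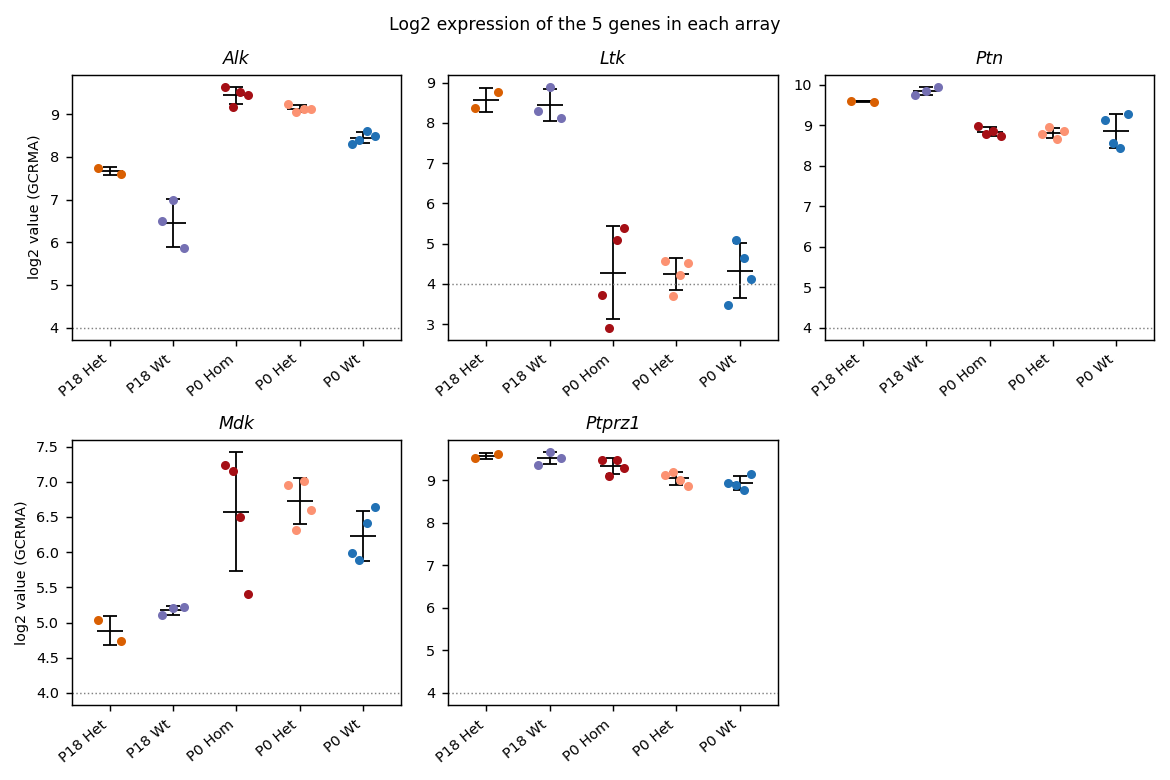
Log2 expression value (vertical axis) of each of the 5 genes in each of the 17 arrays, by group; points are arrays, the bar is the mean and the whiskers are 1 SD, and the dotted line marks the filter value of 4. Alk and Mdk sit higher at P0, Ltk and Ptn sit higher at P18, and the P0 values of Ltk fall on both sides of the dotted line.

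The first comparison asked which of the 5 genes moved during normal growth of the ganglia from birth to P18. All 5 were called, that is, had an adjusted p under 0.05. The fall of Alk in P18 Wt against P0 Wt ganglia was 2.00 ± 0.19 on the log2 scale (SE of the limma fit), with group means of 6.45 ± 0.57 in P18 Wt and 8.45 ± 0.13 in P0 Wt ganglia (SD, n = 3 and n = 4; adjusted p = 3.38e-07), so that P0 Wt ganglia had 4.00 times the P18 Wt level. Ltk was higher at P18, with means of 8.44 ± 0.41 in P18 Wt ganglia and 4.33 ± 0.69 in P0 Wt ganglia and a difference of 4.11 ± 0.50 (adjusted p = 4.76e-06). The P0 values of Ltk lie near the floor of the arrays, so that the size of this difference is uncertain and no fold is given. Ptn was higher by 0.99 ± 0.16 (adjusted p = 0.000102), with means of 9.84 ± 0.11 in P18 Wt and 8.85 ± 0.41 in P0 Wt ganglia. Mdk, the other ligand, was lower in P18 Wt than in P0 Wt ganglia, by -1.06 ± 0.34 (adjusted p = 0.0161). Ptprz1 was higher by 0.59 ± 0.12 (adjusted p = 0.000651). Thus 3 of the 5 genes were called higher and 2 lower. Such calls were frequent, as 27.9% of all genes tested were called higher and 27.0% lower in this comparison. Of the genes tested, 0.642% had a larger absolute difference than Ltk, a share as uncertain as the size of that difference. The share was 6.50% for Alk and 43.3% for Ptprz1. The call of Mdk was lost without P0 Wt arrays 1 and 4 (-0.98, adjusted p = 0.0682).

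The same course was measured in ganglia with 1 mutant allele. In P18 Het against P0 Het ganglia all 5 genes were called in the same directions as in Wt. Ltk was higher by 4.31 ± 0.56 (adjusted p = 1.33e-05), a size as uncertain as in Wt since the P0 Het values of 3.70 to 4.56 lie near the floor. Ptn was higher by 0.77 ± 0.19 (adjusted p = 0.0028) and Ptprz1 by 0.53 ± 0.14 (adjusted p = 0.00445). Alk was lower in P18 Het than in P0 Het ganglia by -1.46 ± 0.21 (adjusted p = 3.97e-05) and Mdk by -1.84 ± 0.39 (adjusted p = 0.00104). In this comparison 22.3% of the genes tested were called higher and 25.5% lower. The call of Ptprz1 was lost without P18 Het array 5 (0.48, adjusted p = 0.0517).

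Markers of other cells moved with the stage as well, and in bulk ganglia fewer cells of a type and less RNA per cell cannot be told apart. The counts that follow stand against 27.9% of all genes called higher and 27.0% lower for P18 Wt against P0 Wt, and 22.3% higher and 25.5% lower for P18 Het against P0 Het. Of 9 dividing cell markers tested, 8 were called lower in P18 Wt than in P0 Wt ganglia and 9 in P18 Het than in P0 Het ganglia. Their mean log2 value per array was 2.37 to 2.38 in P18 Het, 2.37 to 2.54 in P18 Wt, 6.04 to 6.49 in P0 Het and 4.33 to 5.26 in P0 Wt ganglia. The P18 group means of these markers, from 1.69 for Plk1 to 2.88 for Birc5, were all near the floor. These markers passed the filter through P0 arrays, so that calls of lower at P18 were close to fixed by the filter. Of 10 fibroblast markers, 7 were called lower and 1 higher in the Wt comparison and 6 lower and 2 higher in the Het one, with list means of 7.34 to 7.48 in P18 Het, 7.44 to 7.47 in P18 Wt, 8.14 to 8.48 in P0 Het and 8.72 to 9.54 in P0 Wt ganglia. Of the 7 endothelial markers tested 6 were called lower in Wt and 4 in Het ganglia, and of the 8 mural cell markers 5 and 4. The endothelial genes Pecam1 and Kdr and the mural genes Kcnj8, Abcc9 and Notch3 had means under the filter line in both P18 groups. The same held for the fibroblast genes Lox, Fbln1 and Pdgfra. Of the 8 Schwann and satellite glia markers tested, 2 were called higher in Wt ganglia, and 6 were called higher and 1 lower in Het ganglia, with median differences of 0.35 and 1.32. Glia list means were 8.02 to 8.12 in P18 Het, 7.79 to 8.11 in P18 Wt, 6.51 to 6.66 in P0 Het and 6.70 to 8.06 in P0 Wt ganglia, and the glial factor Sox10 lay close to the filter line, between 3.27 and 4.44 in all arrays. The 2 sensory neuron genes tested had differences of opposite sign in Wt ganglia, so that their list mean at P18 reflects Avil alone. Avil was called higher at P18, by 4.93 ± 0.85 (adjusted p = 0.000176), with 12.1 in both P18 Het arrays, 11.7 to 12.1 in P18 Wt and 4.23 to 9.51 in P0 Wt ganglia. Pou4f1 was between 2.56 and 2.60 in every P18 array, while its P0 Wt values were 5.94, 2.57, 2.52 and 5.40, and its difference of -1.52 was not called (adjusted p = 0.0503). The sympathetic neuron list had 6 markers called higher and 3 lower of 11 in Wt ganglia, and 5 higher and 4 lower in Het ganglia. Higher at P18 in both were Th, Dbh, Ddc and Slc18a2, of noradrenaline synthesis and storage, and the nicotinic receptor subunit Chrna3, while the transcription factors Phox2a, Gata3 and Isl1 were lower in both. Its list means were 11.43 in P18 Het, 11.50 in P18 Wt, 10.93 in P0 Hom, 11.27 in P0 Het and 11.20 in P0 Wt ganglia. Of 8 skeletal muscle markers tested, 3 were called lower in Wt and 1 in Het ganglia, with median differences of -4.15 and -3.26. Muscle list means were 2.83 to 2.98 in P18 Het, near the floor, and 2.87 to 6.40 in P18 Wt ganglia. At P0 they were 3.57 to 9.06 in Het and 3.17 to 11.51 in Wt ganglia. Of 2 fat markers, 1 was called lower in Wt and 0 in Het ganglia, with median differences of -3.01 and -1.56. The part of these cells in the stage differences of the 5 genes was not tested.

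**Figure D2:**
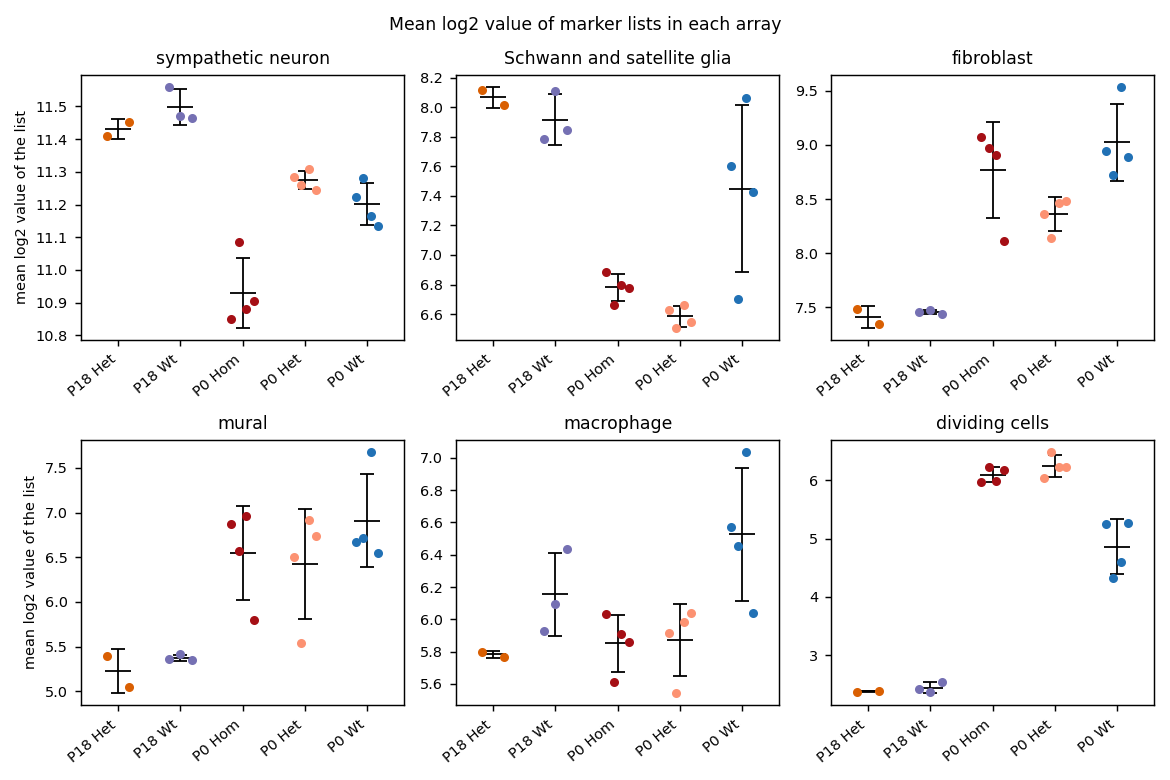
Mean log2 value of 6 marker lists (vertical axis) in each of the 17 arrays, by group; points are arrays, the bar is the mean and the whiskers are 1 SD. The dividing cell list is lowest in both P18 groups, at 2.38 in P18 Het and 2.44 in P18 Wt ganglia, and the P0 Hom (6.10) and P0 Het (6.25) means lie above that of P0 Wt ganglia (4.86).

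The comparison of the genotypes at P18 asked whether 1 mutant allele still went with another level of the 5 genes. Alk was 2.33-fold higher in P18 Het than in P18 Wt ganglia, with means of 7.67 ± 0.10 in P18 Het (SD, n = 2) and 6.45 ± 0.57 in P18 Wt ganglia (n = 3), a difference of 1.22 ± 0.23 (95% interval 0.74 to 1.70; adjusted p = 0.0342). Both Het arrays lay above all 3 Wt arrays, by 0.61 at the nearest. Few genes were called here, 0.211% of those tested as higher and 0.0501% as lower, and Alk ranked 19 by p among 9973. The call rested on few arrays. It was lost without P18 Het array 4 (1.15, adjusted p = 0.433), P18 Het array 5 (1.30, adjusted p = 0.267) or P18 Wt array 1 (1.25, adjusted p = 0.0861), and a fit on these 5 arrays alone gave an adjusted p of 0.248. The other 4 genes were not called. Ltk differed by 0.12 with a 95% interval of -1.14 to 1.39, Ptn by -0.26 (-0.67 to 0.16), Mdk by -0.29 (-1.16 to 0.58) and Ptprz1 by 0.05 (-0.25 to 0.36). For Ptn and Mdk both Het arrays were below all Wt arrays, by 0.15 for Ptn and 0.07 for Mdk at the nearest. With 2 and 3 arrays such an order, also that of Alk, can easily arise by chance. Its share over all genes was not counted, and no difference of Ptn or Mdk is read from it.

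In newborn ganglia Alk was higher with each mutant genotype. The P0 Hom mean was 9.45 ± 0.20, the P0 Het mean 9.13 ± 0.07 and the P0 Wt mean 8.45 ± 0.13 (SD, n = 4 each). The difference was 0.999 ± 0.17 for Hom against Wt (adjusted p = 0.00142) and 0.68 ± 0.17 for Het against Wt (adjusted p = 0.0447), with no overlap of arrays in either. The first kept its call without any 1 of the 8 arrays (0.94 to 1.09). The second lost it without any 1 of them, at 0.64 to 0.74 with adjusted p between 0.0563 and 0.113. The difference of Hom against Het was 0.31 ± 0.17 (95% interval -0.06 to 0.69; adjusted p = 0.303). Across the genome, 5.16% of the genes tested were called higher and 3.34% lower for Hom against Wt, 1.80% higher and 1.30% lower for Het against Wt, and 4.14% higher and 3.25% lower for Hom against Het. Of the Hom against Het calls 56% were higher, but 32.6% after each array was centred on its median. Sympathetic neuron markers moved beside Alk. Of 11, 3 were called lower in P0 Hom than in P0 Wt ganglia, namely Th by -0.82 ± 0.12 (adjusted p = 0.00044), the transcription factor Gata2 by -0.86 ± 0.12 (adjusted p = 0.000178) and Ddc by -0.75 ± 0.12 (adjusted p = 0.000794), and none higher. For Hom against Het 5 were lower and none higher, and for Het against Wt 1 was higher and none lower. The list means per array were 10.85 to 11.09 in P0 Hom, 11.24 to 11.31 in P0 Het and 11.14 to 11.28 in P0 Wt ganglia, and the part of these cells in the Alk differences was not tested.

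Of the other 4 genes at P0, Ptprz1 was called in 1 comparison. It was 1.32-fold higher in P0 Hom than in P0 Wt ganglia, with means of 9.34 ± 0.18 in Hom and 8.94 ± 0.16 in Wt ganglia and a difference of 0.40 ± 0.11 (adjusted p = 0.0331). Of the 4 Hom arrays, 3 lay above all Wt arrays and 1, at 9.10, below the highest Wt array of 9.14. The call was lost without P0 Hom array 9 or 11 or P0 Wt array 1, 2 or 3 (0.35 to 0.40, adjusted p from 0.067 to 0.101), and with several other settings given in the closing section. Ptprz1 had a mean of 9.05 ± 0.15 in P0 Het ganglia, and the Het against Wt difference was 0.11 (95% interval -0.12 to 0.35; adjusted p = 0.647). Of 8 glia markers, Mbp (-2.40) and S100b (-1.55) were called lower for Hom against Wt and none higher, where 3.34% of all genes were called lower, and Foxd3 differed by 0.79 (adjusted p = 0.13). Glia list means were 6.66 to 6.88 in P0 Hom, 6.51 to 6.66 in P0 Het and 6.70 to 8.06 in P0 Wt ganglia, so that the Hom and Wt ranges overlapped. The part of glia in the Ptprz1 difference was not tested.

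Ltk and both growth factors were not called for any genotype at P0. Mdk differed by 0.35 for Hom against Wt (95% interval -0.33 to 1.02; adjusted p = 0.589), by 0.49 for Het against Wt (-0.18 to 1.16; adjusted p = 0.444) and by -0.14 for Hom against Het (-0.82 to 0.53). Single arrays moved the Hom against Wt value from 0.123 (without P0 Hom array 9) to 0.735 (without P0 Hom array 12, adjusted p = 0.0527). The Mdk value of P0 Hom array 12 was 5.41, below all other P0 arrays, and without P0 Hom array 12 and P0 Wt array 3 together the Hom against Wt difference was 0.80 and was called (adjusted p = 0.0457). Leaving out the lowest Hom value was bound to raise this difference, so that no increase of Mdk is read from that call. Dividing cell markers were higher in the mutant newborn ganglia, with 7 of 9 called for Hom against Wt and 8 of 9 for Het against Wt, beside 5.16% and 1.80% of all genes called higher, and list means of 5.98 to 6.24 in P0 Hom, 6.04 to 6.49 in P0 Het and 4.33 to 5.26 in P0 Wt ganglia. The Plk1 mean was 4.35 in P0 Hom, 4.52 in P0 Het and 2.65 in P0 Wt ganglia, and the P0 Wt means of Aurka, Aurkb and Cenpe were under the filter line too, so that these counts include genes that are near the floor in P0 Wt ganglia and passed the filter where they are high. The part of dividing cells in the Mdk values was not tested. Ptn differed by -0.01 for Hom against Wt (95% interval -0.34 to 0.31) and by -0.04 for Het against Wt (-0.36 to 0.28). Its high P0 Wt arrays were arrays 1 (9.13) and 4 (9.27), which also stood apart in markers of other cells. The sensory neuron factor Pou4f1 was at 5.94 and 5.40 there and between 2.51 and 2.62 in the other 15 arrays. Avil, the other gene of that list, was at 9.51 and 8.37 there, 5.96 and 4.23 in P0 Wt arrays 2 and 3 and 3.69 to 4.65 in the mutant P0 arrays, but 11.7 to 12.1 in all P18 arrays. The glial gene S100b was also highest among P0 arrays in these 2, at 6.41 and 6.78. Mbp and Sox10 of the same list were instead highest among P0 arrays in P0 Wt array 3, at 11.6 and 4.44. The glia list mean was also highest there, at 8.06, with 7.60 and 7.42 in P0 Wt arrays 1 and 4. P0 Wt array 3 had the lowest P0 Wt value of Ptn, 8.44. The part of sensory neurons and glia in the Ptn values was not tested. Without P0 Wt arrays 1 and 4 Ptn differed by 0.34 for Hom against Wt (adjusted p = 0.0714) and by 0.31 for Het against Wt (adjusted p = 0.0924). As these arrays held the highest P0 Wt values of Ptn, leaving them out was bound to raise both differences, and no increase is read from it. Ltk differed by -0.05 for Hom against Wt and by -0.08 for Het against Wt, with 95% intervals of -1.03 to 0.93 and -1.06 to 0.91.

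The Het effect at P18 minus the Het effect at P0 was called for none of the 5 genes, and for 0.140% of all genes tested. For Alk it was 0.54 with a 95% interval of -0.07 to 1.15 (adjusted p = 0.552), so that a larger effect at P18 was not shown, and it was 0.243 without P18 Wt array 3 and 0.807 without P18 Wt array 2. It was 0.20 for Ltk (-1.40 to 1.80), -0.22 for Ptn (-0.75 to 0.31), -0.78 for Mdk (-1.88 to 0.32) and -0.06 for Ptprz1 (-0.45 to 0.32).

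**Figure D3:**
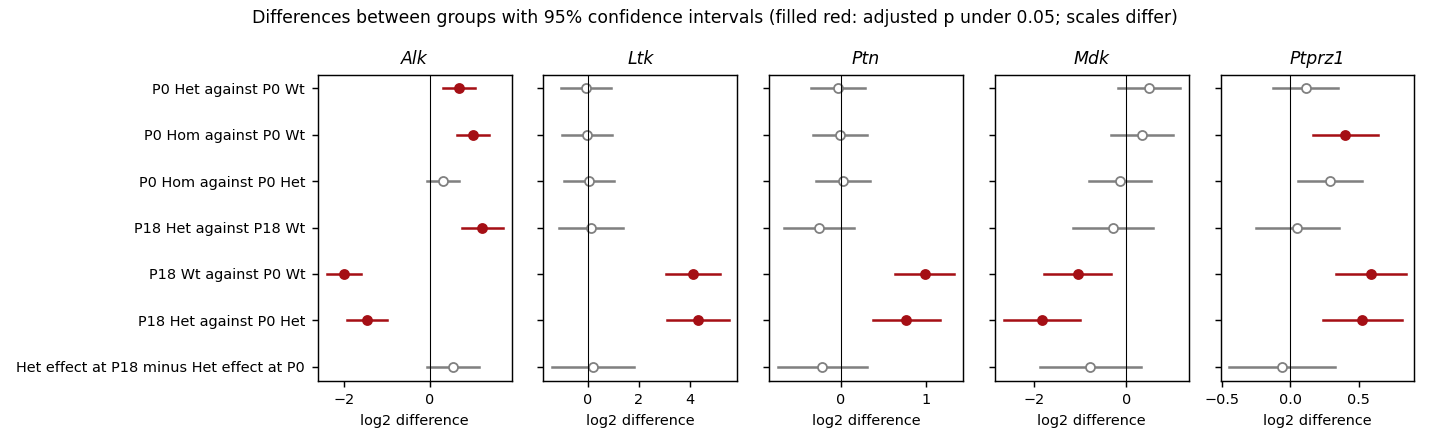
Log2 difference (horizontal axes, 1 scale per gene) of the 5 genes in each comparison, first group minus second, with the 95% confidence interval of the limma fit; filled red points have an adjusted p under 0.05. All 5 genes are filled in both stage comparisons, while between genotypes only Alk and, for P0 Hom against P0 Wt, Ptprz1 are.

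The known partners and relays of these genes were taken as 48 genes in 5 groups. Of these 42 had a row and 32 passed the filter, namely 12 receptors and partners of pleiotrophin and midkine, 9 partners and substrates of Ptprz1, 9 adaptors and relays of Alk and 2 kinases of the insulin receptor class. In P0 Hom against P0 Wt ganglia 3 of the 32 were called higher and 3 lower, beside 5.16% and 3.34% of all genes tested, with a median difference of 0.06 over the 32 genes and 0.01 over all genes tested. Cspg5 (neuroglycan C), a brain proteoglycan that binds midkine, was 2.64 ± 0.34 higher (adjusted p = 9.14e-05), with values of 6.23 to 7.71 in P0 Hom ganglia and 4.28 to 5.42 in P0 Wt ganglia. The P0 Wt values lie near the filter line, so that the size for Cspg5 is uncertain. Irs2, a docking protein of insulin receptor class kinases, was 1.60 ± 0.21 higher (adjusted p = 0.000103), and its arrays did not overlap between 7.49 to 8.33 in Hom and 6.20 to 6.67 in Wt ganglia. Pik3r1, the regulatory subunit of PI3-kinase, was 0.69 ± 0.20 higher (adjusted p = 0.0403), a call lost without P0 Hom array 9, 10 or 11 or P0 Wt array 2 or 3 (adjusted p up to 0.123). Insrr, an orphan relative of the insulin receptor that senses alkaline pH, was called lower in Hom than in Wt ganglia (adjusted p = 0.00515), with values of 2.93 to 3.00 in Hom and 3.85 to 4.94 in Wt ganglia. All P0 Hom and P0 Het arrays were under the filter line, which Insrr passed through P18 and P0 Wt arrays, so that the size of its difference is not given. Cntn1 (contactin), the neuronal cell surface protein that Ptprz1 binds, was lower by -0.92 ± 0.12 (adjusted p = 0.000136), with 9.46 to 9.67 in Hom and 10.16 to 10.92 in Wt ganglia. Nrp1 (neuropilin), a semaphorin coreceptor to which pleiotrophin also binds, was lower by -0.49 ± 0.07 (adjusted p = 0.000341).

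With 1 mutant allele at P0, 1 of the 32 partners was called higher and 1 lower against P0 Wt ganglia, beside 1.80% and 1.30% of all genes tested, with medians of 0.05 over the 32 genes and 0.04 over all genes tested. Gpc2, a glypican of growing axons that binds midkine, was 1.04 ± 0.20 higher (adjusted p = 0.00997), and Cntn1 was lower by -0.78 ± 0.12 (adjusted p = 0.00267). Gpc2 values were 7.39 to 7.75 in P0 Hom, 8.48 to 8.66 in P0 Het and 7.23 to 7.87 in P0 Wt ganglia, so that the Het arrays lay above those of both other genotypes. For P0 Hom against P0 Het, 4 were called higher and 2 lower, beside 4.14% and 3.25% of all genes tested. Gpc2 was lower by -1.05 ± 0.20 (adjusted p = 0.00594) and Nrp1 by -0.39 ± 0.07 (adjusted p = 0.00503). Cspg5 was higher by 1.69 ± 0.34 (adjusted p = 0.00774), Irs2 by 1.14 ± 0.21 (adjusted p = 0.00445), Stat3, a transcription factor activated by phosphorylation, by 0.64 ± 0.15 (adjusted p = 0.0165) and the syndecan Sdc4 by 0.98 ± 0.29 (adjusted p = 0.0499). The Sdc4 call was lost without any 1 of the 8 arrays except P0 Hom array 11, and that of Stat3 without P0 Het array 6 (adjusted p = 0.0523). At P18, 0.211% of all genes tested were called higher for Het against Wt and 0.0501% lower. Gab1, a docking protein that links receptors to PI3-kinase, was the only 1 of the 32 partners called there. It was 0.87 ± 0.16 higher (adjusted p = 0.0332), with 8.92 and 8.93 in P18 Het and 7.99 to 8.18 in P18 Wt ganglia, and lost its call without any 1 of the 5 arrays (adjusted p from 0.0682 to 0.329). The median was 0.10 over the 32 genes and -0.02 over all genes tested.

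Between the stages many partners were called, as were many of all genes. In P18 Wt against P0 Wt ganglia 6 of 32 were higher and 14 lower, beside 27.9% and 27.0% of all genes tested, with a median of -0.28 over the 32 genes against 0.01 over all genes tested, and in P18 Het against P0 Het ganglia 7 were higher and 13 lower, beside 22.3% and 25.5%, with medians of -0.28 and -0.04. The calls of Sdc2, Ncl, Itga6 and Ctnnb1 in Wt ganglia and of Ctnnb1 and Jak2 in Het ganglia were each lost without at least 1 single array. Of the pleiotrophin and midkine partners, Sdc4 was 2.60 ± 0.31 higher in Wt ganglia (adjusted p = 4.16e-06) and 3.74 ± 0.35 higher in Het ones (adjusted p = 4.13e-07). Gpc2 was lower, by -3.67 ± 0.22 in Wt ganglia (adjusted p = 2.08e-09) and -4.70 ± 0.24 in Het ones (adjusted p = 8.92e-10). Its P18 values, 3.86 and 3.87 in Het and 3.19 to 4.22 in Wt ganglia, lie near the floor, so that these sizes are uncertain. Nrp1 was lower by -1.91 ± 0.08 in Wt and by -2.05 ± 0.09 in Het ganglia. Cspg5 was higher by 1.61 ± 0.37 in Wt ganglia (adjusted p = 0.00155), a size uncertain for its P0 Wt values near the filter line. In Het ganglia Cspg5 was not called (0.67, adjusted p = 0.206). Its values at P18, 6.22 and 6.26 in Het and 6.13 to 6.29 in Wt ganglia, were close to the lowest P0 Hom array (6.23). Of the Ptprz1 partners, the matrix protein Tnc (tenascin-C) was lower, by -5.89 ± 0.28 in Wt ganglia (adjusted p = 2.56e-10) and -5.62 ± 0.32 in Het ones (adjusted p = 1.99e-09), with 4.95 and 5.54 in P18 Het, 4.38 to 5.36 in P18 Wt, 10.77 to 11.03 in P0 Het and 10.32 to 11.09 in P0 Wt ganglia. The kinase Fyn was lower by -1.69 ± 0.10 in Wt ganglia and the scaffold Magi1 by -1.38 ± 0.21. The size for Magi1 is uncertain too, as its P18 Wt values of 3.47 to 3.74 lie near the floor. Cntn1, in contrast, was higher at P18 by 1.11 ± 0.13 in Wt and by 1.71 ± 0.15 in Het ganglia. Of the Alk adaptors, the docking protein Irs1 was lower, by -2.07 ± 0.20 in Wt ganglia (adjusted p = 4.1e-07) and -1.54 ± 0.23 in Het ones (adjusted p = 4.01e-05), and the kinase Jak2 by -0.81 ± 0.16 in Wt ganglia. Of the 2 insulin receptor class kinases, Igf1r, the receptor for IGF1, was lower by -1.15 ± 0.11 in Wt ganglia (adjusted p = 5.51e-07), and Insrr was higher by 1.25 ± 0.33 (adjusted p = 0.00445), or by 0.76 without P18 Wt array 2 (adjusted p = 0.0319). The P0 Wt values of Insrr, 3.85 to 4.94, lie near the floor, so that its size is uncertain as well.

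**Figure D4:**
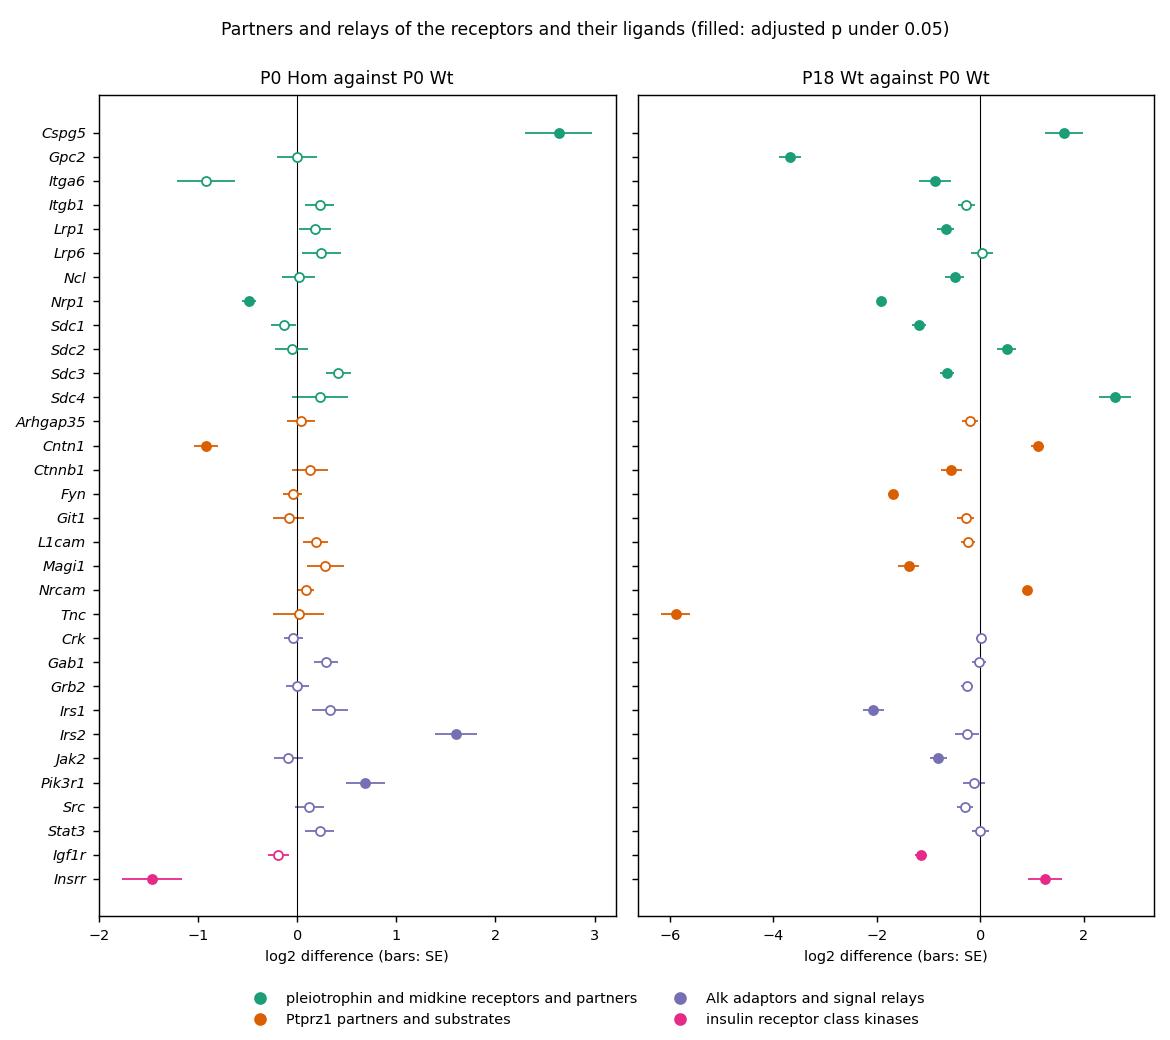
Log2 difference (horizontal axes) of the 32 partner genes for P0 Hom against P0 Wt (left) and P18 Wt against P0 Wt (right), first group minus second; bars are the SE of the limma fit, colours are the 4 gene groups and filled points have an adjusted p under 0.05. Filled are 6 genes on the left, with Cspg5 at 2.64 the largest, and 20 on the right, with Tnc at -5.89 the largest in size.

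The genes most like each of the 5 were found by Pearson's r over the named genes tested. The 5 genes, the partner genes and the marker list genes were left out of this search. It is a description, since the arrays share the groups and, over all 17, the 2 stages. Over the 17 arrays Alk was most like Nwd2 (r = 0.97, Spearman's rho = 0.92), Adcy1, an adenylate cyclase of neurons (r = 0.97), and Tenm3, a teneurin of axon wiring (r = 0.97, rho = 0.98). Over the 12 P0 arrays Alk was most like the desmosomal plaque gene Dsp (r = 0.97), the synaptic organiser Cbln2 (r = 0.96) and Gpr176 (r = 0.96). Ltk was most like Pgbd5 over the 17 arrays (r = 0.98) and Acer3, a ceramidase, over the P0 arrays (r = 0.92), with Pgbd5 next there (r = 0.87). Mdk was most like the mitosis genes Cdc20 (r = 0.92) and Nuf2 (r = 0.92) over the 17 arrays, and like Prdx4 (r = 0.87), a peroxiredoxin, over the P0 arrays. Ptn was most like Sh3bgrl3 (r = 0.96) and the metallothionein Mt3 (r = 0.96) over the 17 arrays, and like Cntnap4 (r = 0.91) over the P0 arrays. Ptprz1 was most like Kifap3, a kinesin subunit (r = 0.93), over the 17 arrays. Over the P0 arrays it was most like Tm7sf2, an enzyme of cholesterol synthesis (r = 0.98), with another receptor tyrosine phosphatase, Ptprg, next (r = 0.93).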

How the data were processed

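Expression in 17 samples of sympathetic ganglia was measured on Affymetrix arrays. The authors normalized the arrays by GCRMA with Brainarray annotation and deposited log2 values, 1 per gene and array. GCRMA subtracts background by probe composition, so that low values pile up near a floor. The version, and whether all arrays were normalized together, are not given in the sources used here. The labels speak of RNA taken with a miRNeasy kit and the study's methods of Trizol. Gene symbols came from the platform annotation through Entrez IDs (16464 probe sets with 1 symbol of 17306), and positions and promoter windows from RefSeq (GRCm38.p6), which held windows for 4 of the 5 genes.

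A linear model with a mean for each group was fitted here to all 17 arrays (limma 3.58.1, R 4.3.3). Each of 7 contrasts was tested two-sided by moderated statistics (eBayes with a trend and robust variances), the p-values of the 9973 probe sets kept were adjusted by Benjamini-Hochberg, and calls are those with an adjusted p below 0.05. The number of arrays limits the precision. The median array value lay between 4.41 and 4.68. The methods name Student's t-test, which was run as an alternative, beside other filters, scalings, variance models and left-out arrays. The text names the 5 genes, up to 4 called genes of each partner group with the largest differences per contrast, not all of them printed, and the 3 genes most like each of the 5 by r. The last were sought outside the partner groups and marker lists only. The 5 genes, the gene groups, the marker lists and the arrays left out in pairs were chosen with earlier results of these data known.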

Additional observations from a re-analysis of the deposited data

Results flagged for a closer look

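In groups of 4 arrays, the highest or lowest array was compared with its nearest neighbour. Of 45 such groups, over the 5 genes and 10 marker lists, 3 had an array far from the others, all in marker lists, and none of the 15 groups of the 5 genes did. Chance gives about 1 in 20. The fibroblast list mean was 8.115 in P0 Hom array 12, with the next array at 8.91. The mural cell list mean was 7.68 in P0 Wt array 3, with the next at 6.72. The sensory neuron list mean was 3.102 in P0 Hom array 10, with the next at 3.554. P0 Hom array 12 was also the lowest P0 array for Mdk (5.41).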

How the results depend on the processing

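The stage differences of the 5 genes kept their direction in all 160 alternative values and their call in 158, the exceptions being Mdk in P18 Wt against P0 Wt ganglia without P0 Wt arrays 1 and 4 (-0.975) and Ptprz1 in P18 Het against P0 Het ganglia without P18 Het array 5. Over the 5 genes and 7 comparisons, 526 of 600 alternative values kept direction and call, and the 40 that changed sign were all of differences that were not called. The calls between genotypes were less stable, and the cause was not tested. Groups of 2 to 4 arrays, and Ltk values near the floor at P0, limit the precision. Of the 55 calls of partner genes, 813 of 890 alternative values kept the call and none changed sign.

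Alk for P0 Het against P0 Wt lost its call without a filter (0.685), with plain eBayes (0.685), without P0 Wt arrays 1 and 4 (0.641) and without P0 Wt array 3 and P0 Hom array 12 (0.735), where P0 Hom does not enter the difference but does enter the spread. Alk for P18 Het against P18 Wt lost it with median centring (1.187), in the compared groups only and in the methods' t-test (1.223 in both). Alk for P0 Hom against P0 Het was called with array weights (0.387), as was Ptprz1 (0.446). Ptprz1 for P0 Hom against P0 Wt lost its call without a filter, in the compared groups only and in the methods' t-test (0.402 in each), with median centring (0.358) and without P0 Wt array 3 and P0 Hom array 12 (0.361), the setting in which Mdk was called (0.796).

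Signs changed as follows. With quantile normalization, Ltk was -0.053 for P0 Hom against P0 Het and Ptprz1 0.024 for the difference of the Het effects at P18 and P0. With median centring, Ptn was 0.006 for P0 Het against P0 Wt and -0.065 for P0 Hom against P0 Het, and Ltk -0.064 for the last. With array weights, Ltk was 0.219 for P0 Het against P0 Wt, 0.328 for P0 Hom against P0 Wt and -0.141 for the difference of Het effects, and Ptprz1 0.056 for the last. Without P0 Wt arrays 1 and 4, Ptn was 0.313 for P0 Het against P0 Wt and 0.337 for P0 Hom against P0 Wt. Without P0 Wt array 3 and P0 Hom array 12, Ltk was 0.025 for P0 Het against P0 Wt and -0.341 for P0 Hom against P0 Het, where Mdk was 0.246.

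Leaving out each array in turn gave these ranges. Alk was 0.638 to 0.735 for P0 Het against P0 Wt and 0.928 to 1.492 for P18 Het against P18 Wt. Ltk was -0.356 to 0.176 for P0 Het against P0 Wt, -0.417 to 0.404 for P0 Hom against P0 Wt, -0.341 to 0.479 for P0 Hom against P0 Het, -0.081 to 0.352 for P18 Het against P18 Wt and -0.052 to 0.48 for the difference of Het effects. Ptn was -0.175 to 0.102 for P0 Het against P0 Wt, -0.151 to 0.126 for P0 Hom against P0 Wt and -0.026 to 0.072 for P0 Hom against P0 Het, and Mdk -0.366 to 0.246 for the last and 0.123 to 0.735 for P0 Hom against P0 Wt. Alk was 0.243 to 0.807 for the difference of Het effects. Ptprz1 was 0.346 to 0.483 for P0 Hom against P0 Wt, 0.227 to 0.371 for P0 Hom against P0 Het (called without P0 Hom array 10), 0.463 to 0.577 for P18 Het against P0 Het, -0.024 to 0.122 for P18 Het against P18 Wt and -0.136 to 0.01 for the difference of Het effects.

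The numbers of genes called were 310 for P0 Het against P0 Wt, 848 for P0 Hom against P0 Wt, 737 for P0 Hom against P0 Het, 26 for P18 Het against P18 Wt and 14 for the difference of Het effects. For P0 Het against P0 Wt the number was 845 with array weights, 60 in the methods' t-test, 693 without P0 Wt arrays 1 and 4, and 159 (without P0 Het array 7) to 385 (without P0 Wt array 1) over the left-out arrays. For P0 Hom against P0 Wt it was 1536 with array weights, 347 in the compared groups only and 142 in the t-test. For P0 Hom against P0 Het it was 474 without a filter, 2647 with array weights, 224 in the t-test, 1456 without P0 Wt array 3 and P0 Hom array 12, and 352 (without P0 Hom array 9) to 970 (without P0 Hom array 10) over the left-out arrays. For P18 Het against P18 Wt it was 56 without a filter, 14 with the stricter filter, 401 with array weights, 1 in the t-test and 5 to 29 over the left-out arrays. For the difference of Het effects it was 31 without a filter, 3 with the stricter filter, 23 with plain eBayes, 303 with array weights, 27 in the compared groups only, 56 without P0 Wt arrays 1 and 4, 67 without P0 Wt array 3 and P0 Hom array 12, and 2 to 28 over the left-out arrays. At the t-test's own unadjusted threshold it gave 1751, 1312, 2024 and 1028 genes for the first 4 comparisons. Median centring made 32.6% of the P0 Hom against P0 Het calls higher (56% otherwise) and 44.4% of those for the difference of Het effects (57.1%).

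The numbers 1 to 3 occur at both stages of Wt. Deviations of same-numbered arrays correlated at -0.01, 0.07 and -0.12, and those of differently numbered arrays at -0.13 to 0.11. No pairing by number was seen, but 3 arrays per stage are too few to tell whether a number stands for a shared litter or batch. With a replicate block over these 6 arrays, 4123 genes were called for P18 Wt against P0 Wt, 4916 on the same arrays without it, and the 5 genes kept direction and call (Alk -1.984, Ltk 4.042, Ptn 1.131, Mdk -0.92, Ptprz1 0.656). The calls of Sdc2, Ncl, Ctnnb1 and Insrr were lost under it.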
